A study of Mus musculus with 3 samples.

Results

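The genes described here act in the release of cholesterol from lysosomes or in the transfer of cholesterol and other lipids between membranes. They are the 10 rows of the count matrix, of 31053 genes in all, whose symbol is Npc1, Npc2, Lipa, Stard3, Gramd1a, Gramd1b, Gramd1c, Osbp, Osbpl8 or Osbpl9, and all 10 were found. They were followed across classes of mouse liver non-parenchymal cells, which are the endothelial and immune cells left when hepatocytes are set aside. Among the differences were a Npc1 level 6.48 times as high in plasmacytoid dendritic cells as in sinusoidal endothelial cells, a Npc2 level 6.41 times as high in Kupffer cells as in sinusoidal endothelial cells, and a Lipa level in plasmacytoid dendritic cells 0.133 times that in Kupffer cells.

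The study is about lipid nanoparticles (LNPs) whose components differ in stereochemistry, and about their endocytosis and mRNA delivery in the liver. All 3 groups were Ai14 (LSL-Tomato) mice, a Cre reporter strain whose recombined cells become red fluorescent. One group received PBS, one 20a-LNP and one 20mix-LNP, the last 2 with Cre mRNA at 0.3 mg/kg, and the cells were taken 3 h after injection. Each group gave 1 droplet library of flow-sorted cells, with about 2000 cells loaded. The sources used here give neither the number, age and sex of the mice nor the sorted populations. The deposited matrix pools the 3 libraries under barcode suffixes 1, 2 and 3, and no source used here ties a suffix to a treatment. No value below is therefore an effect of a treatment, and differences between suffixes mix treatment, animal and library, which cannot be told apart.

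Cholesterol reaches lysosomes mainly as cholesteryl ester inside lipoproteins taken up from blood. Lysosomal acid lipase, the product of Lipa, frees the cholesterol. The soluble protein Npc2 then binds it and passes it to Npc1 in the lysosomal membrane, and loss of either protein leaves cholesterol trapped there, as in Niemann-Pick disease type C. Beyond the lysosome, sterol moves at sites where membranes touch. Stard3 sits on late endosomes and binds the endoplasmic reticulum (ER), the Gramd1 (Aster) proteins are anchored in the ER and take up cholesterol from the plasma membrane, and Osbp and its relatives exchange lipids between the ER and other membranes. Kupffer cells, the macrophages of the liver sinusoids, and sinusoidal endothelial cells, which line them, are both known as scavengers that clear material from blood.

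Promoter sequences are shown for Npc2 and Lipa, whose levels set Kupffer, plasmacytoid dendritic and endothelial cells apart, and for Osbpl8 and Stard3, whose promoters matched a searched motif. RefSeq promoter tables on GRCm38.p6 held 8 of the 10 members, without Npc1 and Gramd1b, and 11 promoters of these. Each sequence below is the 250 bases before a start site, 5′ to 3′ on the gene's strand, in lower case with any motif match in capitals.
Npc2 (chr12:84773113-84773362, minus strand): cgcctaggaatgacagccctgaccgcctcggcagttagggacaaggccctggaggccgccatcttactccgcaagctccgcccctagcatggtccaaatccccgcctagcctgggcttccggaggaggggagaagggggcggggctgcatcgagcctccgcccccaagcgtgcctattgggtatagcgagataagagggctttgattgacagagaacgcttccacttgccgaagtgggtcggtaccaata
Lipa (chr19:34527475-34527724, minus strand): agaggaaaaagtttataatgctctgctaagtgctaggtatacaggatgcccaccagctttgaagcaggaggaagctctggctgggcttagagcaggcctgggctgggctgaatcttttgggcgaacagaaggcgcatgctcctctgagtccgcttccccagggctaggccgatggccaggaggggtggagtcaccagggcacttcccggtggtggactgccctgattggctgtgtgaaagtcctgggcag
Osbpl8 (chr10:111164552-111164801, plus strand): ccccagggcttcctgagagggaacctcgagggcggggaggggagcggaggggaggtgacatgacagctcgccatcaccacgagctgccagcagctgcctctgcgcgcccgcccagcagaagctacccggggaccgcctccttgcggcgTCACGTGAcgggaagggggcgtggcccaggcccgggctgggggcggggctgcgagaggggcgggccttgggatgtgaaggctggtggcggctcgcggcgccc
Stard3 (chr11:98358118-98358367, plus strand): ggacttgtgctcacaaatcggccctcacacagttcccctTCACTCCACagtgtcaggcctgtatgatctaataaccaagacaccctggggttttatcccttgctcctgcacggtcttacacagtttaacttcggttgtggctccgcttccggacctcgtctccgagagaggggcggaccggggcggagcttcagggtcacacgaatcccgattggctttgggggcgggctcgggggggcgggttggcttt
The motifs searched on both strands, over 300 bases from 250 before to 50 after the start site, were CACGTG and TCACGTGA, cores of the element bound by lysosomal transcription factors, and TCACNCCAC, a sterol regulatory element core. In Osbpl8, TCACGTGA stood at base -102 from the start site and includes CACGTG at base -101. In Stard3, TCACNCCAC stood at base -211. The shorter CACGTG also stood at -78 and -178 in 2 of the 3 Gramd1c promoters. The promoters of Npc2, Lipa, Gramd1a, Osbp and Osbpl9 held no match in this window. By the gene positions given below, the Gramd1a window, all 3 Gramd1c windows and an Osbpl9 window lie inside the gene, away from its 5′ end. Of all 32851 promoters of that length, 7.15% held CACGTG, 0.974% held TCACGTGA and 1.24% held TCACNCCAC. A match describes the letters of this window only.

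Cells were assigned to classes by a gate on raw counts of unique molecular identifiers (UMIs, each one captured RNA molecule). A cell joined the class with the most marker UMIs if it had at least 3 of them from at least 2 marker genes and no other class had more than 25% as many. Of 4638 barcodes with 24111183 UMIs (6144949, 8754827 and 9211407 for suffixes 1, 2 and 3), 3207 cells passed the filters and 2166 (67.5%) were gated. The 8 classes with at least 50 cells were sinusoidal endothelial (932 cells), NK or ILC1 (313), plasmacytoid dendritic (276), Kupffer (198), monocyte (135), T (90), conventional dendritic 1 (66) and conventional dendritic 2 (60). Cells gated as neutrophils (49) and B cells (47) were fewer, so every order and rank below is among these 8 classes only. NK cells and ILC1 are related innate lymphocytes of the liver. Each of these classes held UMIs of every one of its own markers. Median UMIs per cell ran from 3032 in Kupffer to 17885.5 in conventional dendritic 1 cells. Of the kept barcode sequences, 3 occurred under more than 1 suffix.

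Some markers crossed the gates. In the plasmacytoid dendritic gate all 4 conventional dendritic 2 markers were seen. Their summed level was 827 to 986 counts per 1000000 UMIs (CPM) by library, mostly Clec10a (402 CPM) and Cd209d (343 CPM). In conventional dendritic 2 cells the pooled sum was 1481 CPM, but Clec10a and Cd209d were lower there, at 297 and 182 CPM. Cd209a and Mgl2 were higher there, at 868 and 134 CPM against 125 and 25.4 CPM in the plasmacytoid dendritic gate. In the Kupffer gate the monocyte list reached 581 to 733 CPM, all from Treml4, Adgre4 and Cd300e, with F13a1, Chil3 and Vcan at 0. In the T gate all 5 NK or ILC1 markers were seen, at a pooled sum of 306 CPM, mostly Klre1 (221 CPM). That sum was 2262 CPM in the NK or ILC1 gate. The conventional dendritic 1 list reached 132 CPM in the endothelial gate, from Clec9a (74.8 CPM) and Tlr3 (57.0 CPM). The 10 hepatocyte transcripts, all seen, summed to 460 CPM in Kupffer (289, 876 and 310 CPM for suffixes 1, 2 and 3) and 225 CPM in sinusoidal endothelial cells. Haemoglobin reached 2746 CPM in the endothelial gate, of which 96.2% lay in 1 barcode of suffix 3. The part of these transcripts in the levels below was not tested, except where a value is given.

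Levels below are a gene's UMIs summed over the cells of a class, in CPM, with an exact Poisson 95% interval. Intervals cover counting error only, not variation between cells, animals or libraries. UMIs are counted at the 3′ end and were not divided by length, so each gene is compared with itself across classes. A library's value is given where it held at least 20 cells of the class. No test was run, since cells are not replicates.

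Lipa, the lipase that frees cholesterol in the lysosome, was highest in Kupffer cells and next in sinusoidal endothelial cells. The Kupffer level was 309, 350 and 280 CPM for suffixes 1, 2 and 3, and the endothelial level was 215, 190 and 205 CPM. The 3 Kupffer values lay above the 3 endothelial values, and the pooled ratio was 1.503 (1.30 to 1.73). Monocytes stood lower, at 95.7, 117 and 119 CPM, and the endothelial level was 1.86 times theirs (1.52 to 2.29). Plasmacytoid dendritic cells had only 37.3, 44.9 and 40.7 CPM and NK or ILC1 cells 30.6, 39.7 and 22.6 CPM. The other pooled levels were 56.7 CPM in conventional dendritic 1, 41.1 CPM in conventional dendritic 2 and 25.2 CPM in T cells. From conventional dendritic 1 downward, no neighbours in the order had a ratio whose interval lay above 1. Lipa thus had 3 separated steps, Kupffer, endothelial and monocyte, and then a low group.

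Npc2, which carries cholesterol within the lysosome, was higher in the Kupffer, monocyte and 3 dendritic classes than in endothelial, NK or ILC1 and T cells. It was not high in the 49 neutrophil-gated cells, at 95.2 CPM (58.2 to 147). It reached 903, 1071 and 942 CPM in Kupffer cells, 781, 832 and 782 CPM in plasmacytoid dendritic cells and 730, 516 and 657 CPM in monocytes. In sinusoidal endothelial cells it was 150, 134 and 156 CPM, and in NK or ILC1 cells 140, 192 and 170 CPM. The highest of these endothelial and NK or ILC1 values, 192 CPM, lay far below the lowest of the other values just given, 516 CPM. Kupffer and plasmacytoid dendritic values did not overlap either. Pooled levels were 661 CPM in conventional dendritic 1, 481 CPM in conventional dendritic 2 and 191 CPM in T cells. Within the monocytes, 12 cells on the classical side had 1441 CPM and the 117 on the nonclassical side 410 CPM (408, 354 and 496 CPM by library), a parting chosen after seeing the data. Between conventional dendritic 2 cells and the next class in the order, T cells, the ratio was 2.52 (2.03 to 3.16). Lipa and Npc2 therefore differed in the endothelial gate, which was second of 8 classes for Lipa and last for Npc2. The last place was narrow, with a pooled NK or ILC1 to endothelial ratio of 1.15 (1.01 to 1.31). In suffix 1 the endothelial level was the higher of these, 150 against 140 CPM.

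Npc1, the membrane exporter that takes cholesterol from Npc2, had its highest level in plasmacytoid dendritic cells. These had 276, 224 and 257 CPM for suffixes 1, 2 and 3, and a pooled level of 252 CPM (234 to 272). Kupffer cells followed with 86.6, 45.4 and 56.6 CPM, and sinusoidal endothelial cells with 44.1, 34.7 and 37.7 CPM. The lowest plasmacytoid value was above the highest Kupffer value, whereas the lowest Kupffer value was only just above the highest endothelial one. The remaining classes lay between 19.8 CPM in T cells and 34.0 CPM in conventional dendritic 2 cells, and none of them was separated from its neighbour, nor was the endothelial gate from conventional dendritic 2. The other dendritic classes thus did not share the high level: the ratio of plasmacytoid to conventional dendritic 1 was 9.33 (6.48 to 13.9) and to conventional dendritic 2 was 7.41 (5.11 to 11.2). With only the 12 plasmacytoid and 468 endothelial cells that had no UMI of another class's markers, the ratio to endothelial cells was 6.12. Those 12 cells held only 56548 UMIs, and with this gate Npc1 did not count as higher by the rule given below. In the annotation Npc1 overlaps Rmc1 and Gm15956 on the opposite strand. The sources used here do not say whether counting used strand, so reads of overlapping genes cannot be told apart.

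**Figure D1:**
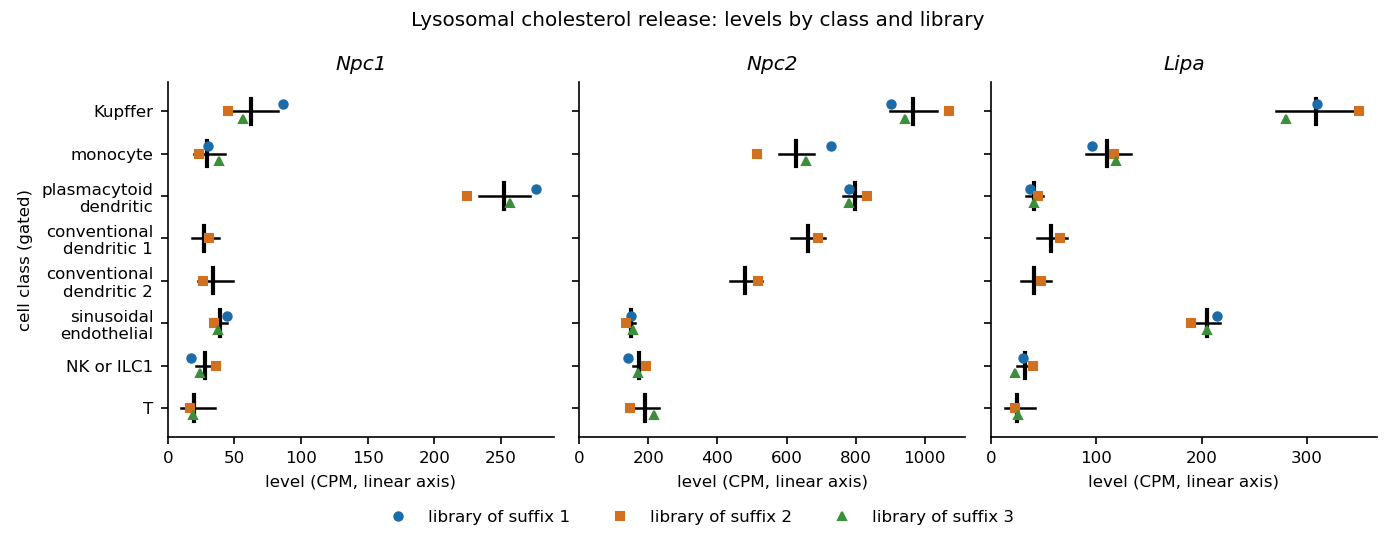
Levels of Npc1, Npc2 and Lipa in CPM (linear axes) by gated cell class. Vertical ticks are the pooled level, horizontal bars its exact Poisson 95% interval, and coloured symbols the libraries with at least 20 cells of the class. Npc1 stands out in plasmacytoid dendritic cells at 252 CPM, Npc2 is higher in the 5 Kupffer, monocyte and dendritic classes than in the other 3, and Lipa is highest in Kupffer and sinusoidal endothelial cells.

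The share of cells with at least 1 Npc1 UMI was also highest in plasmacytoid dendritic cells. It was 77.9% of plasmacytoid dendritic cells (exact Clopper-Pearson 95% interval 72.5 to 82.7%) against 17.7% of endothelial, 16.7% of Kupffer and 7.78% of T cells. These classes differ in depth, with medians of 10699.5, 5487, 3032 and 6078 UMIs. After thinning each cell to 1000 UMIs, the shares were 22.5%, 3.85%, 5.63% and 1.12% in the same order, with 74 endothelial, 38 Kupffer and 1 T cells left out as too shallow. The T cell share belongs to the class with the lowest Npc1 level of the 8, and free RNA was not measured. For Lipa the thinned shares were 28.1% in Kupffer, 17.2% in endothelial and 2.54% in plasmacytoid dendritic cells, where the unthinned shares were 55.1%, 53.9% and 32.2%. At equal depth the Kupffer and endothelial shares of Lipa were apart, which the unthinned shares did not show.

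Stard3, which tethers late endosomes to the ER and moves cholesterol there, differed little between classes. Its pooled level ran from 26.6 CPM in sinusoidal endothelial cells to 59.8 CPM in conventional dendritic 2 cells, and no neighbours in the order were separated. By library it was 39.7, 52.8 and 65.8 CPM in plasmacytoid dendritic cells and 23.9, 27.5 and 27.6 CPM in endothelial cells. These did not overlap, and the pooled ratio was 2.01 (1.58 to 2.55). At an equal 1000 UMIs per cell, that ratio was 0.999. Kupffer cells had 37.1, 36.3 and 47.7 CPM and monocytes 38.9, 49.5 and 30.7 CPM, which overlapped.

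Of the Gramd1 genes, whose proteins move plasma membrane cholesterol to the ER, Gramd1a and Gramd1b were highest in NK or ILC1 and T cells among the 8 classes. Within the NK or ILC1 gate, the 56 cells on the NK side, described below, had only 73.7 CPM of Gramd1a and 41.2 CPM of Gramd1b. Outside the 8 classes, Gramd1a was at 209 CPM (152 to 281) in neutrophil-gated and 43.7 CPM in B-gated cells, and Gramd1b had 1 and 0 UMIs there. Gramd1a was 203, 180 and 194 CPM in NK or ILC1 cells and 73.8, 71.8 and 59.6 CPM in sinusoidal endothelial cells, with no overlap. T cells had 214 and 160 CPM for suffixes 2 and 3. Pooled, they were not separated from NK or ILC1 cells (ratio of the latter to T 1.07, 0.852 to 1.35). Kupffer cells had 55.1 CPM, and the remaining classes ran from 18.01 CPM in conventional dendritic 1 to 34.0 CPM in conventional dendritic 2. After thinning to 1000 UMIs, 24.4% of NK or ILC1 cells and 20.2% of T cells had a Gramd1a UMI, against 3.26% of plasmacytoid dendritic cells. Without thinning these shares were 61.3%, 64.4% and 26.4%. In the annotation Gramd1a overlaps 2 antisense genes and Gramd1b 6 other genes, so their counts carry the same uncertainty about strand as Npc1.

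Gramd1b followed the same order at its top and spread more between libraries. It was 124, 70.0 and 97.1 CPM in NK or ILC1 cells, where the library of suffix 2 was the low one. In sinusoidal endothelial cells it was 21.7, 43.1 and 27.6 CPM, where suffix 2 was the high one. The groups did not overlap, and the ratio within a library ran from 1.63 in suffix 2 to 5.74 in suffix 1. T cells had 70.1 CPM and plasmacytoid dendritic cells 39.9 CPM, and each step from T cells to plasmacytoid, endothelial and conventional dendritic 2 cells (15.3 CPM) was separated in the pooled counts, although in suffix 2 the endothelial level was above the plasmacytoid level (38.2 CPM). Kupffer cells held only 4 Gramd1b UMIs, a level of 5.01 CPM (1.37 to 12.8), with none in suffix 1. Gramd1c had few UMIs in every class. Its pooled level was 8.46 CPM in NK or ILC1 cells (16 UMIs) and 7.32 CPM in endothelial cells (38 UMIs), and 3.59 CPM or less elsewhere. No UMI was seen in monocytes or conventional dendritic 2 cells, where 3 counts would correspond to 3.07 and 3.52 CPM.

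**Figure D2:**
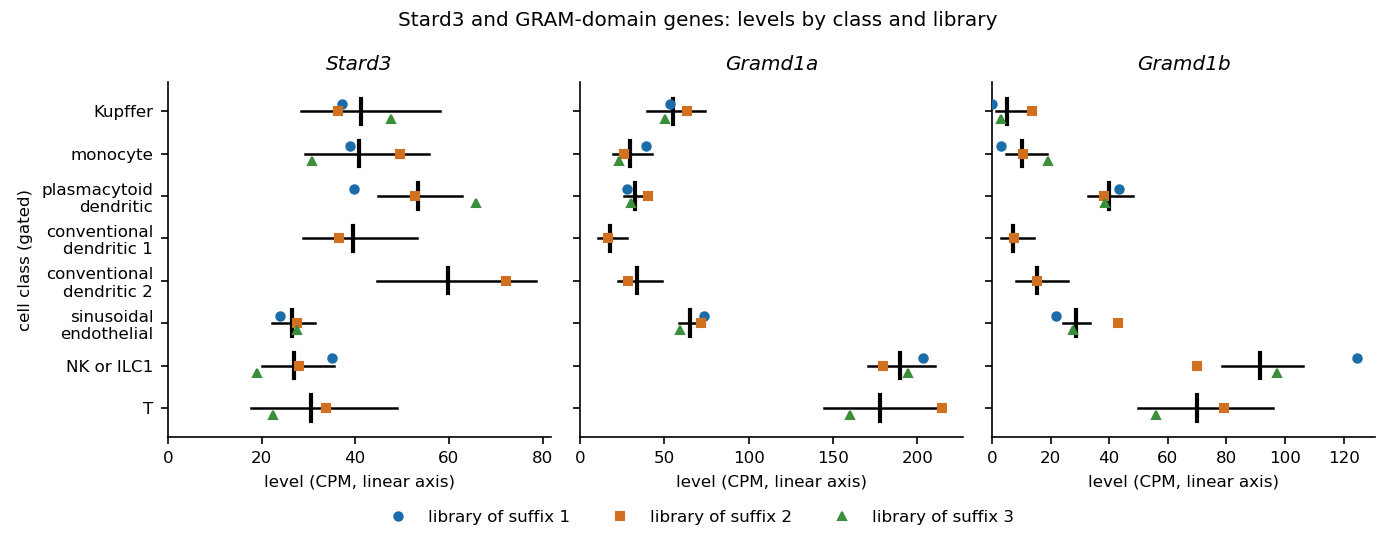
Levels of Stard3, Gramd1a and Gramd1b in CPM (linear axes) by gated cell class, with pooled levels (ticks), exact Poisson 95% intervals (bars) and libraries (symbols). Of the 8 classes shown, NK or ILC1 and T cells have the highest Gramd1a and Gramd1b levels, and Gramd1b is near 0 in Kupffer cells, while the Stard3 intervals of neighbouring classes overlap.

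Among the oxysterol-binding protein genes, Osbpl9 was the one whose top class, sinusoidal endothelial cells, was separated from the next of the 8. The neutrophil-gated cells, outside this order, had 195 CPM (140 to 265). Its product works at contacts of the ER with the trans-Golgi. It was 121, 117 and 120 CPM in sinusoidal endothelial cells and 90.7, 90.8 and 92.4 CPM in Kupffer cells, and the values of these 2 classes did not overlap. Plasmacytoid dendritic cells had 60.1, 44.9 and 56.4 CPM and NK or ILC1 cells 30.6, 32.7 and 36.4 CPM. Below the endothelial step, no neighbouring classes were separated between Kupffer at 91.4 CPM and T cells at 32.4 CPM. The annotation places Osbpl9 over part of Nrd1 on the other strand.

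Osbp, which exchanges cholesterol for a phosphoinositide at ER to Golgi contacts, ran from 12.9 CPM in conventional dendritic 2 to 56.5 CPM in sinusoidal endothelial cells. Endothelial values were 57.1, 49.0 and 58.2 CPM and NK or ILC1 values 10.9, 21.0 and 36.4 CPM, without overlap but with a wide spread in the latter. Kupffer cells had 49.5, 45.4 and 26.8 CPM. Osbpl8, an ER protein of plasma membrane contacts that exchanges phosphatidylserine, showed a different order. It was highest in monocytes (77.8, 91.2 and 115 CPM) and endothelial cells (82.4, 71.8 and 86.5 CPM), which overlapped, and lowest in Kupffer cells (20.6, 40.9 and 20.9 CPM). Monocytes and Kupffer cells, both of the mononuclear phagocyte lineage, thus stood at the ends of the Osbpl8 order, with a monocyte to Kupffer ratio of 3.54 (2.18 to 5.99). Neither Osbp nor Osbpl8 had neighbouring classes that were separated.

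**Figure D3:**
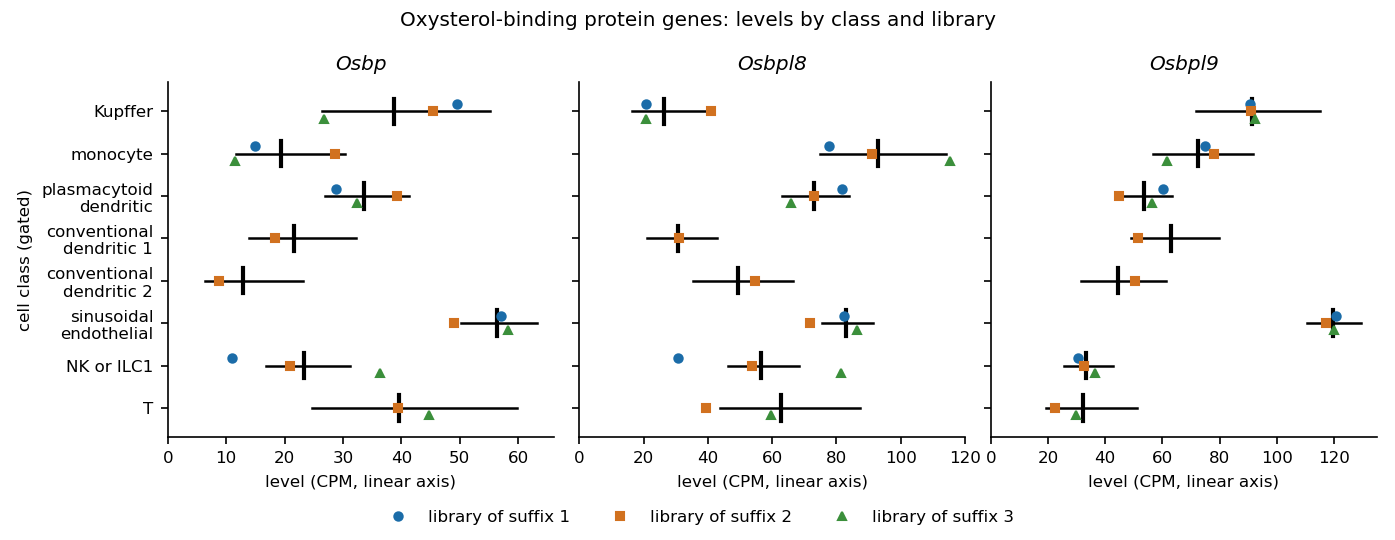
Levels of Osbp, Osbpl8 and Osbpl9 in CPM (linear axes) by gated cell class, with pooled levels (ticks), exact Poisson 95% intervals (bars) and libraries (symbols). Of the 8 classes shown, Osbpl9 is highest in sinusoidal endothelial cells at 120 CPM, and Osbpl8 is lowest in Kupffer cells at 26.3 CPM.

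For 4 chosen pairs of classes with at least 20 cells in every library, all genes were compared. Other pairs that met this minimum, among them those with monocytes, were not compared in this way. A gene counted as higher or lower when its pooled ratio was 2-fold or more and its direction was the same in all 3 libraries, among genes at 20 CPM or more in at least 1 of the classes. In each pair 9 members could be assessed, and Gramd1c was below the minimum. The comparisons share classes, so they are given side by side and not as separate evidence.

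Between Kupffer and sinusoidal endothelial cells, 1 member, Npc2, was higher in Kupffer cells, and 2, Gramd1b and Osbpl8, were lower. Of all 7460 genes assessed, 15.3% were higher and 33.4% lower, so the members' shares were near the background. The Npc2 ratio was 6.41 (5.79 to 7.09), the Gramd1b ratio 0.176 (0.0472 to 0.459) and the Osbpl8 ratio 0.317 (0.194 to 0.490). Npc1 (1.61, 1.16 to 2.20), Lipa (1.503) and Stard3 (1.55, 1.03 to 2.29) were above 1 in every library but short of 2-fold. The median log2 ratio of the members was -0.21, beside -0.33 for all genes assessed. The Gramd1b ratio rests on 4 Kupffer UMIs, and it was 0.631 with cells thinned to 1000 UMIs and 0.0672 without the library of suffix 2.

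Plasmacytoid dendritic cells had 3 members above sinusoidal endothelial cells, Npc1, Npc2 and Stard3, and 2 below, Lipa and Osbpl9. All genes gave 21.1% higher and 32% lower of 7712, within about 1 gene of the members' counts. The ratios were 6.48 for Npc1 (5.53 to 7.62), 5.30 for Npc2 (4.88 to 5.76) and 2.01 for Stard3. For Lipa the ratio was 0.200 (0.163 to 0.244) and for Osbpl9 0.449 (0.372 to 0.539). Gramd1a (0.502, 0.393 to 0.637) was just short of 2-fold, and Stard3 was just past it, with a ratio of 1.84 without the library of suffix 3. The exporter and its lumenal partner were thus above the endothelial level while the lipase was below it, in all 3 libraries. The median log2 ratio was -0.16 for members and -0.23 for all genes. When mitochondrial, ribosomal, hepatocyte and haemoglobin genes were left out of the total, Osbpl9 moved to 0.521, and with thinned cells Lipa moved to 0.131.

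For NK or ILC1 against sinusoidal endothelial cells, Gramd1a and Gramd1b (2 members) were higher and Lipa, Osbp and Osbpl9 (3 members) lower. Of 7727 genes, 20.4% were higher and 30.2% lower, shares close to the members' own. The Gramd1a ratio was 2.91 (2.497 to 3.38) and the Gramd1b ratio 3.21 (2.56 to 4.02). Lipa had the lowest ratio, 0.157 (0.119 to 0.204), followed by Osbpl9 at 0.278 (0.211 to 0.361) and Osbp at 0.412 (0.293 to 0.567). Npc2 and Stard3 were close to 1, at 1.15 (1.01 to 1.31) and 1.01 (0.720 to 1.41), and their direction differed between libraries. The median log2 ratio was -0.36 for members and -0.18 for all genes. With each cell weighted alike, Osbp reached 0.683, short of 2-fold, and Gramd1a 4.53.

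Between plasmacytoid dendritic and Kupffer cells, 3 members were higher in the former, Npc1, Gramd1b and Osbpl8, and 1 was lower, Lipa. Of 6857 genes, 25.3% were higher and 19.9% lower, within 1 gene of the members' counts. The Npc1 ratio was 4.03 (3.02 to 5.48), with 3.19, 4.94 and 4.54 in the libraries of suffixes 1, 2 and 3. The Lipa ratio was 0.133 (0.105 to 0.167), with 0.120, 0.128 and 0.145. Osbpl8 was at 2.78 (1.77 to 4.59), and Gramd1b at 7.97 (3.02 to 29.8) on 4 Kupffer UMIs. Npc2 differed little, at 0.827 (0.761 to 0.899). Among these 2 classes that both carried much Npc2, one had the higher Npc1 and the other the higher Lipa level. The Gramd1b ratio was 23.6 without suffix 2, and with thinned cells Osbpl8 was at 5.60 and Lipa at 0.0766, while Npc1 was at 6.09 with each cell weighted alike.

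**Figure D4:**
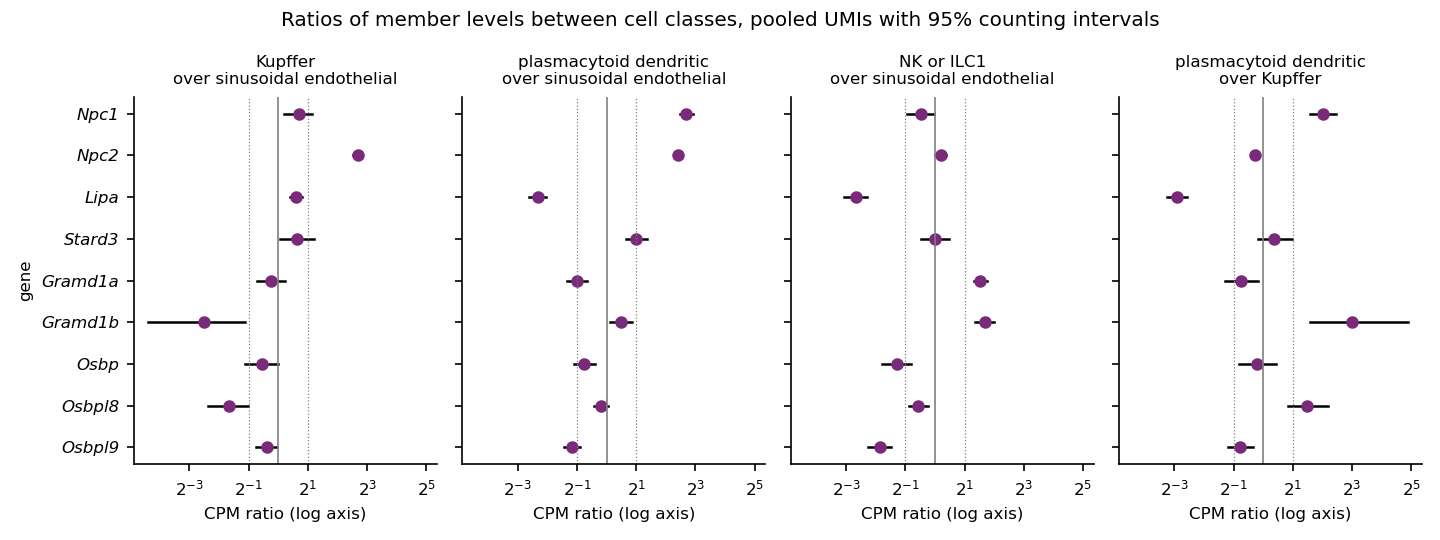
Ratios of pooled levels between 4 pairs of gated classes for the 9 members that could be assessed (log axis), with exact conditional 95% counting intervals as bars. The solid line marks a ratio of 1 and the dotted lines 2-fold. Lipa lies far left in both panels with plasmacytoid dendritic cells as numerator, at 0.200 and 0.133, and Npc1 far right, at 6.48 and 4.03.

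Within the NK or ILC1 gate, cells were parted by a second set of markers chosen after seeing the data. The 165 cells on the ILC1 side (Cxcr6, Itga1, Tmem176a, Tmem176b, Gzmc) had 208 CPM of Gramd1a, and the 56 on the NK side (Eomes, Klra8, Itga2, S1pr5, Cma1) had 73.7 CPM. That ratio was 2.82 (1.96 to 4.18), and in suffix 2, the library with enough cells of both, the levels were 220 and 91.3 CPM. Gramd1b was likewise higher on the ILC1 side, 106 against 41.2 CPM (ratio 2.58, 1.58 to 4.45), with 90.2 and 28.3 CPM in suffix 2. Osbpl8 was lower there, at 41.8 against 71.6 CPM (0.585, 0.364 to 0.948), but the libraries differed: the ILC1 side had 18.8, 27.6 and 72.5 CPM for suffixes 1, 2 and 3, and the NK side 69.2 CPM in suffix 2. The other 7 members had intervals that included 1. On the NK side, the Gramd1a interval (51.1 to 103 CPM) included the pooled endothelial level of 65.3 CPM. The Gramd1b interval there (24.8 to 64.3 CPM) included the pooled plasmacytoid dendritic level of 39.9 CPM. In sinusoidal endothelial cells, 139 cells on the pericentral side (Wnt2, Rspo3, Kit, Cdh13, Thbd) and 339 on the periportal side (Ltbp4, Efnb2, Dll4, Adgrg6, Msr1) differed in no member beyond counting error. Lipa was 231 and 227 CPM on these sides (ratio 1.02, 0.853 to 1.21), and Gramd1a 87.6 and 65.7 CPM (1.33, 0.985 to 1.79).

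The pattern of each member was set against other genes over 19 values, 1 per class and library, by Pearson's r of log2(CPM + 10) among 5911 genes at 50 CPM or more in some class. These points share libraries and differ in depth, so r is a description only. Npc1 was closest to Blnk (r = 0.96), an adaptor of antigen receptor signalling, then Sh3bp4 and Edem2. Npc2 was closest to Mpeg1 (r = 0.98), a pore-forming protein known from macrophages, then Clec12a and Rbm47. Each of these genes had its highest pooled class level in plasmacytoid dendritic cells, Mpeg1 at 1505 CPM. Lipa was closest to Wdfy3 (r = 0.98), then Cd81 and the scavenger receptor gene Msr1. Osbpl9 was closest to the lysosomal membrane gene Lamp2 (r = 0.96), then Ltbr and Qk. Gramd1a was closest to Cysltr2 (r = 0.94), a leukotriene receptor, then Inpp4b and Sp4, and Gramd1b to Atxn2l, H2-Q4 and Ikzf2 (r = 0.93 to 0.90). For Osbpl8 the closest were Cdkn1b, Abca7 and Map1lc3b (0.86 to 0.81), for Osbp Ankrd40, C330007P06Rik and Ganab (0.84 to 0.82), and for Stard3 Tep1, Txn2 and Srsf9 (0.81 to 0.80). Between members, the highest r was 0.90 for Lipa with Osbpl9, followed by 0.70 for Gramd1a with Gramd1b, and the lowest was -0.74 for Npc2 with Gramd1a.

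Other genes of the pathway were followed in lists chosen with the members. Among lysosomal membrane and sterol partners, 6 of 8 could be assessed between Kupffer and endothelial cells, where 1 was higher and 4 were lower in Kupffer cells (15.3% and 33.4% of all genes assessed). Lamp1, a major lysosomal membrane glycoprotein, was higher, at 1132 against 565 CPM. Lamp2, its relative, was lower, at 433 against 1109 CPM, as were the amino acid sensor Slc38a9 (20.0 against 46.3 CPM) and the channel Mcoln1 (11.3 against 34.7 CPM). Gpr155, a lysosomal cholesterol sensor, had 1 UMI in Kupffer cells (1.25 CPM, 0.0317 to 6.98) and 156 CPM in endothelial cells. Plasmacytoid dendritic cells, with their high Npc1, had none of these 6 partners higher than endothelial cells and 5 lower (21.1% and 32% of all genes), among them Lamp1 at 169 CPM and Lamp2 at 170 CPM.

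Of 9 contact site partners, 8 could be assessed between Kupffer and endothelial cells, and 3 were higher in Kupffer cells and none lower (15.3% and 33.4% of all genes). These were the ER tether Mospd2 (96.4 against 24.3 CPM), the Stard3 relative Stard3nl (70.1 against 18.7 CPM) and the kinase Pi4k2a (60.1 against 22.5 CPM). The most abundant of the list, Rab7 and the ER tether Vapa, were at 224 and 185 CPM in Kupffer and 176 and 125 CPM in endothelial cells, within 2-fold. Of 9 other oxysterol-binding protein genes, 2 could be assessed in that pair, and Osbpl2 was lower (10.0 against 30.4 CPM) while Osbpl11 was at 46.3 and 59.9 CPM. Osbpl3 was seen at 172 CPM in NK or ILC1 and 187 CPM in T cells, next to 2 UMIs in endothelial and 1 in Kupffer cells, and so shared its 2 highest classes with Gramd1a. Among 6 other GRAM or START genes, the soluble sterol carriers Stard5 and Stard4 differed in opposite directions between Kupffer and endothelial cells, at 85.2 against 13.5 CPM and 20.0 against 102 CPM.

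On the ER side, Soat1, which esterifies cholesterol arriving at the ER, was higher in Kupffer than in endothelial cells, at 251 against 59.2 CPM. Insig2, which retains Scap in the ER, was lower, at 26.3 against 55.1 CPM. Plasmacytoid dendritic cells had Scap, Srebf2 and Insig1 above the endothelial level and Insig2 and Soat1 below it. Srebf2, the main transcription factor of cholesterol synthesis, was at 123 against 29.3 CPM. Of all 7712 genes assessed between plasmacytoid dendritic and endothelial cells, 21.1% were higher in the former and 32% lower. Of the 4 lysosomal transcription factor genes, 3 could be assessed between Kupffer and endothelial cells, and Tfe3 (133 against 64.4 CPM) and Mitf (58.9 against 4.24 CPM) were higher in Kupffer cells. Of all genes assessed between these classes, 15.3% were higher in Kupffer cells and 33.4% lower. Tfec was at 100.2 and 59.9 CPM in those 2 classes, and at 0.373 CPM in plasmacytoid dendritic cells.

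In the annotation on GRCm38, the members lie apart from each other on 9 chromosomes, with only Lipa and Osbp on the same one, chromosome 19. Npc1 is at 18:12189692-12236400, Npc2 at 12:84754562-84773152, Lipa at 19:34492318-34527474, Stard3 at 11:98358368-98381112 and Gramd1a at 7:31130127-31155896. Gramd1b is at 9:40293233-40531383, Gramd1c at 16:43980350-44063345, Osbp at 19:11965941-11994112, Osbpl8 at 10:111164752-111297249 and Osbpl9 at 4:109061145-109202272.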

How the data were processed

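The authors deposited raw UMI counts of the 3 libraries in 1 pooled matrix, made with Cell Ranger 3.1.0 per the file headers, on mm10 per the submitters' processing notes. STAR, Seurat and edgeR are named there without roles. Kept barcodes had at least 200 genes and at most 20% mitochondrial UMIs and were not called doublets by Scrublet (scanpy 1.11.5), which removed 1431 of 4638: 200 barcodes had too few genes, 1300 too many mitochondrial UMIs and 23 were doublets. Mixed barcodes (382) stayed ungated. Counts were summed per class and scaled to CPM, with exact intervals at 95%. Ratio intervals are conditional on the summed counts, and their calculation was checked on simulated data. Alternatives changed the gate, filters, denominator, depth, weighting, scaling (TMM, edgeR 4.0.16), call fold and minimum, or left out a library. All members are named. From each list, the 2 genes with the highest CPM in any class and those past 2-fold between Kupffer and endothelial cells are named. Others were chosen after their values were seen: Scap, Insig1 and the plasmacytoid dendritic values. The members and lists were chosen with earlier results of these data known. Some genes of the ER sterol list are not reported here. Positions come from GENCODE M21. Sample sheets were not used.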

Additional observations from a re-analysis of the deposited data

Results flagged for a closer look

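The 5 levels here came from barcodes that the class comparisons did not use, and each was above what 3 counts would give there. In the 1431 barcodes removed by the filters, CPM were taken over non-mitochondrial UMIs. Npc1 stood at 189 CPM (172 to 208), Npc2 at 181 CPM and Lipa at 65.4 CPM, where 3 counts correspond to 1.33 CPM. The Npc1 level was above that of the kept cells on the same scale, 79.9 CPM. The plasmacytoid dendritic marker list was at 2289 CPM in the removed and 1479 CPM in the kept barcodes, and the sinusoidal endothelial list at 2668 and 3966 CPM. Their part in the Npc1 level was not tested.

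In the 49 cells gated as neutrophils, 1 short of the 50 needed for a class, Gramd1a was at 220 CPM (160 to 296) and Osbpl9 at 205 CPM (147 to 278), also over non-mitochondrial UMIs, where 3 counts correspond to 15.0 CPM. These rest on 44 and 41 UMIs.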

How the results depend on the processing

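The 36 ratios of members were recomputed under 15 settings each. Of these ratios, 17 were past 2-fold in the pooled counts with the same direction in all libraries. Of the settings, 2 were added after seeing the data (without barcodes over 1% haemoglobin, and without barcode sequences shared between libraries). Of 253 recomputed values of the 17 ratios, 227 stayed within the counting interval of the value reported, 25 moved out of it and 1 reversed. Of 285 values of the other ratios, 257 stayed, 23 moved and 5 reversed. Strictest was a gate with no UMI of another class, which left 55 Kupffer, 12 plasmacytoid dendritic, 182 NK or ILC1 and 468 endothelial cells. Its Kupffer and plasmacytoid cells held only 68354 and 56548 UMIs, against 798378 and 2680909 in the report's setting. The part of this low depth in the ratios of 0 was not tested. With this gate, Kupffer ratios of Gramd1b and Osbpl8 to endothelial cells were 0 and 0. Plasmacytoid ratios of Npc2, Lipa and Osbpl9 to endothelial cells were 3.55, 0 and 0.320. The NK or ILC1 ratio of Npc1 to endothelial cells reversed to 1.04. The plasmacytoid to Kupffer ratio of Lipa was 0, and 0 members were higher in either plasmacytoid comparison. No ratio to Kupffer cells could be formed there for Gramd1b and Osbpl8. With cells thinned to 1000 UMIs, Kupffer ratios to endothelial were 8.41 (Npc2), 0.631 (Gramd1b) and 0.766 (Stard3, reversed). Only 2.5% of the thinned Kupffer cells (0.685 to 6.28%) had a Stard3 UMI. Plasmacytoid ratios to endothelial were 4.51 (Npc2), 0.131 (Lipa), 0.356 (Osbpl9) and 0.999 (Stard3, reversed), and to Kupffer 0.0766 (Lipa), 5.60 (Osbpl8) and 1.06 (Gramd1a, reversed). NK or ILC1 ratios to endothelial were 0.232 (Lipa), 4.27 (Gramd1a), 4.53 (Gramd1b) and 0.792 (Npc2, reversed). With each cell weighted alike, NK or ILC1 ratios to endothelial were 0.998 (Npc2, reversed), 4.53 (Gramd1a) and 0.683 (Osbp), plasmacytoid ratios were 4.52 (Npc2 to endothelial), 6.09 (Npc1 to Kupffer) and 5.25 (Osbpl8 to Kupffer). With mitochondrial, ribosomal, hepatocyte and haemoglobin genes left out of the total, which shifted ratios by 0.06 to 0.23 log2 units, Npc2 was at 6.15 (plasmacytoid) and Gramd1a at 3.40 (NK or ILC1) against endothelial cells, and 1 member was lower in plasmacytoid cells. With TMM scaling, which shifted the Kupffer ratios to endothelial by 0.24 log2 units, Npc2 was at 7.58. At 1.5-fold, 4 members were higher in Kupffer and 4 lower in plasmacytoid than in endothelial cells, and 3 lower in plasmacytoid than in Kupffer cells. With a minimum of 50 CPM, 1 member was lower in Kupffer cells. Leaving out a library moved the NK or ILC1 ratio of Gramd1b between 2.61 and 4.25. The cause of these changes was not tested.

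Counts over all genes moved by over 1.5 times under the strict gate, to 651 higher in Kupffer (1140 in the report's setting) and 116 higher in plasmacytoid than in endothelial cells (1625), and to 139 higher and 633 lower in plasmacytoid than in Kupffer cells (1732 and 1367). With a minimum of 50 CPM, which assesses fewer genes, the lower counts were 1521 (2491), 1599 (2469) and 1518 (2334) in Kupffer, plasmacytoid and NK or ILC1 against endothelial cells, and 1012 (1732) were higher and 878 (1367) lower in plasmacytoid than in Kupffer cells. Depth limits Gramd1c outside endothelial and NK or ILC1 cells, and Gramd1b in Kupffer cells. Classes were paired only through the ratios within each library, and no test was run.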

Other observations

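Classes too small for the comparisons and cells without a class gave further values, in CPM over non-mitochondrial UMIs. Neutrophil-gated cells had Npc2 at 100.1 CPM, Osbpl8 at 75.1 CPM, Lipa at 40.0 CPM and Npc1 at 25.02 CPM, and a single Gramd1b UMI. The 47 B-gated cells had Npc2 at 116 CPM (72.7 to 176), Osbpl8 at 100.2 CPM, Osbpl9 at 63.3 CPM and Gramd1a at 47.5 CPM, with 1 Lipa UMI and no Gramd1b UMI. The 659 kept cells with too few or unclear markers had Npc2 at 570 CPM, Gramd1a at 146 CPM and Npc1 at 46.7 CPM. In the 382 mixed cells Npc1 was at 110 CPM, Gramd1a at 119 CPM and Lipa at 45.9 CPM.

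Monocyte-gated cells were mostly on the nonclassical side (117 of 135, with 12 on the classical side), a parting chosen after seeing the data. Npc2 was at 1441 CPM on the classical and 410 CPM on the nonclassical side, a ratio of 3.51 (2.93 to 4.21) that rests on those 12 cells.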
